A study of Papio anubis with 767 samples.

Results

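Thyroid hormone acts through the nuclear receptors TRα and TRβ, the products of THRA and THRB. The set described here was defined by name and has 6 genes: both receptors, THRSP (Spot 14, a classical thyroid hormone response gene of fat and liver) and the deiodinases DIO1, DIO2 and DIO3, which activate or inactivate the hormone. The members were the rows of the expression table with one of these symbols. Of the 6 symbols, 3 had a row among the 29202 rows (THRA, ENSPANG00000021701; THRB, ENSPANG00000008138; THRSP, ENSPANG00000002786), and the 3 deiodinases were not analysed here.

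As background, both receptors bind DNA as partners of retinoid X receptors, repress target genes through corepressors when no hormone is bound, and recruit coactivators when it is. TRα is known as the main receptor of brain, heart and muscle. TRβ is known for feedback in the pituitary, for actions in the liver, and for its part in hearing and cone photoreceptor development. The THRA gene also makes a splice form that does not bind hormone, and THRB also makes more than one protein form. A gene row adds up these forms, so none of the values below separates them.

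RNA was sequenced from polyA-selected, stranded libraries of 64 baboon tissues. The labels describe 12 male Papio anubis hamadryas of 5 to 6 years and 7 to 11 kg, kept in 12 h of light and 12 h of dark, fed fruit and pellets at 2 set times a day, killed with pentobarbital and perfused with a cold salt solution. Each animal stood for 1 time of day, in steps of 2 h from ZT0 (lights on) to ZT22, so time and animal cannot be told apart, and the 12 animals are the replicates. The tissues fall into 22 brain regions, 35 peripheral tissues and 7 eye or gland tissues (cornea, iris, optic nerve head, pineal gland, pituitary, retina and retinal pigment epithelium), with 12 libraries each and 11 for the iris.

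Reads assigned to genes ran from 32790 to 31.8 M per library, with a median of 8.26 M (M for mega). In the median library 439 reads fell on THRA, 46 on THRB and 2 on THRSP, so THRSP levels near 0 rest on very few reads. Levels are given in FPKM, which is per transcript length, so both receptors can be set side by side as far as the lengths used are right. Those lengths were not tested. Content that goes against the label was found in 60 libraries, which held markers of another tissue or lacked their own. Each library was compared with the median of its own tissue, so content shared by most libraries of a label was not marked. In white adipose subcutaneous, for example, the tissue median of skeletal muscle markers was 126 FPKM. By their pattern over animal-specific genes, 91 libraries matched the animal of another time better than their own. These include all libraries of 6 tissues (ascending colon, descending colon, duodenum, stomach fundus, testicles and thyroid), each of which matched the animal of the preceding time. The main changes in calls and values without such libraries are given below.

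THRA was found in every one of the 767 libraries and had a mean of 1 FPKM or more in all 64 tissues. Brain regions held the upper end of its range. The 10 highest tissue medians were all brain regions, and the median over tissue means was 99.5 FPKM in the 22 brain regions, against 15.2 FPKM in the 35 peripheral tissues. In the amygdala THRA ran from 19.6 to 296 FPKM with a median of 277 FPKM. The lowest amygdala value came from the ZT8 library of 32790 reads, where it rests on 2 reads. Without that library the amygdala mean was 269 ± 36.1 FPKM (SD, n = 11). The hippocampus followed with 145 ± 51.4 FPKM, the arcuate nucleus with 137 ± 32.0 FPKM, the prefontal cortex (spelled as in the labels) with 135 ± 42.1 FPKM and the ventromedial hypothalamus with 133 ± 16.2 FPKM (SD, n = 12 each). The lowest brain mean was that of the thalamus at 36.5 ± 16.2 FPKM, and the pons had 44.1 ± 11.8 FPKM. As a share of each library's summed FPKM, in ppm, the order was another one, with the arcuate nucleus (260 ppm) ahead of the amygdala (255 ppm) and the mammilliary body (245 ppm), all brain regions.

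Outside the brain, the aorta had the highest peripheral THRA level, 33.3 to 86.5 FPKM with a median of 62.6 FPKM. The adrenal cortex averaged 43.5 ± 9.94 FPKM, muscle gastrocnemian 38.0 ± 11.6 FPKM and muscle abdominal 36.2 ± 10.5 FPKM (SD, n = 12 each). By mean, lymphoid tissue was lowest, with 3.73 ± 1.52 FPKM in axillary lymphonodes, 3.89 ± 1.37 FPKM in the spleen and 4.56 ± 1.11 FPKM in mesenteric lymphonodes. By median the liver was lowest, at 2.58 FPKM. As a share of summed FPKM the pancreas was lowest, at 5.79 ppm. In the order of the 64 means, all 63 pairs of neighbouring tissues overlapped in range, so single steps in that order are not resolved. In bulk tissue, fewer cells of a type and less RNA per cell cannot be told apart, here and in all levels below.

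The iris had the highest mean of all, 337 ± 591 FPKM (SD, n = 11), but its median was 82.9 FPKM. Its ZT6 and ZT8 libraries reached 1070 and 1873 FPKM, and in both the FPKM values of all genes summed to 7.86 M and 10.7 M, against 0.42 M to 1.15 M in the other iris libraries. Both also held markers of other cell types. Without them the iris averaged 84.3 ± 53.2 FPKM (n = 9) and stood 13th among the 64 tissues.

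**Figure D1:**
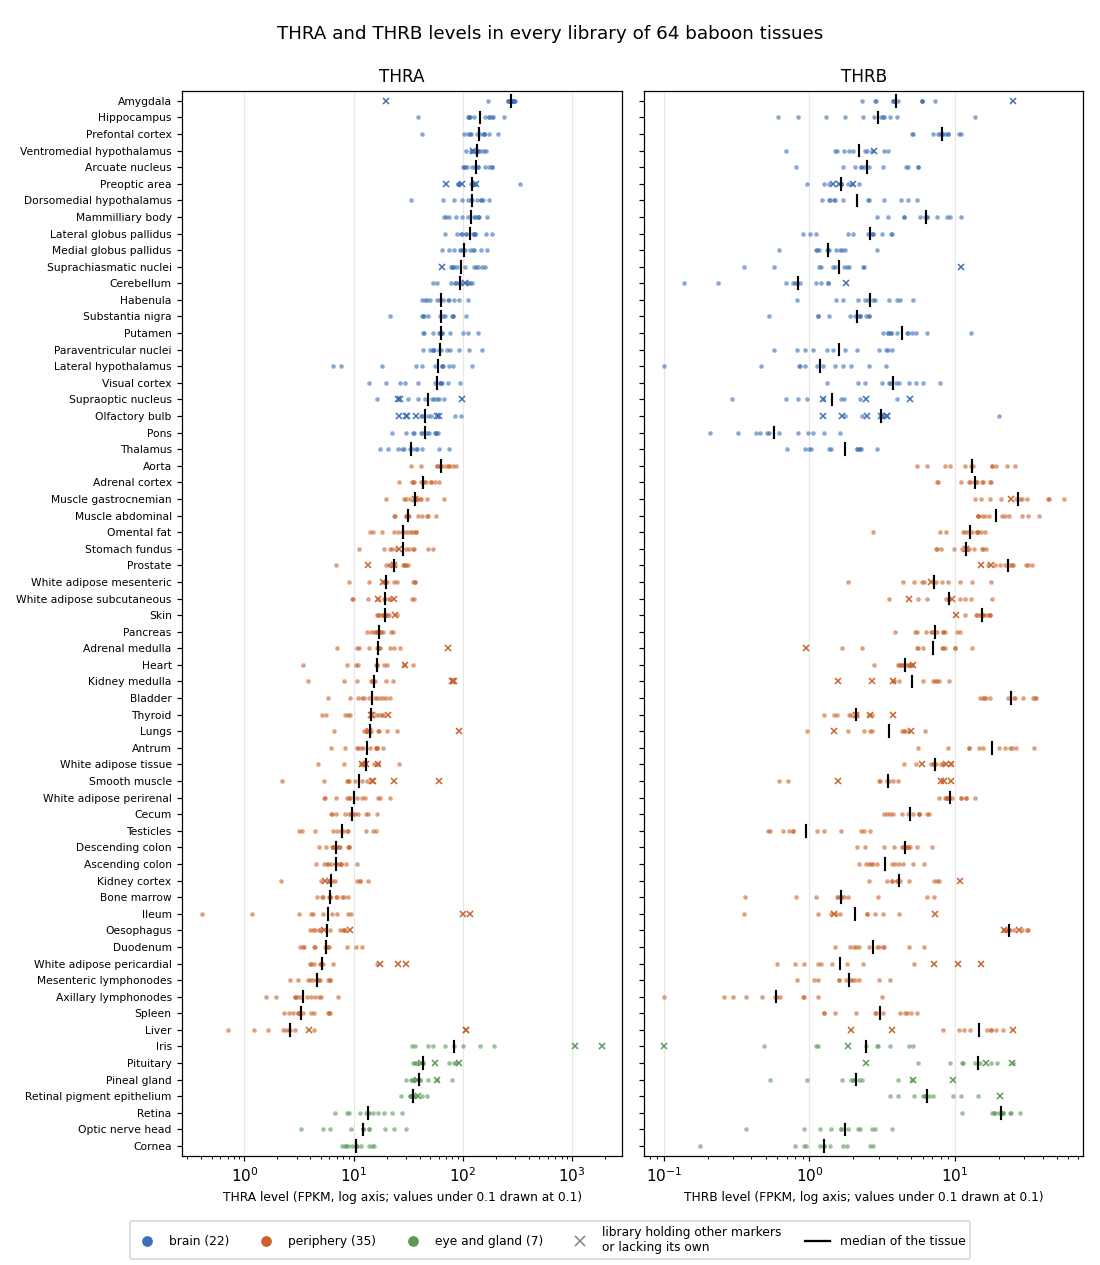
THRA (left) and THRB (right) in each library of 64 tissues, in FPKM on log axes; each point is 1 library of 1 animal, crosses are libraries that held other markers or lacked their own, and black bars are tissue medians. Brain regions lie at the top of the THRA range, from a mean of 36.5 FPKM in the thalamus to 248 FPKM in the amygdala, while THRB in the same regions stays between 0.74 and 8.12 FPKM.

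THRB had another tissue order. Muscle gastrocnemian was highest, with 13.7 to 55.8 FPKM and a median of 27.0 FPKM. It was followed by the oesophagus at 25.3 ± 3.72 FPKM, the bladder at 24.1 ± 8.23 FPKM, the prostate at 23.4 ± 6.07 FPKM, muscle abdominal at 21.4 ± 7.81 FPKM and the retina at 20.6 ± 4.08 FPKM (SD, n = 12 each). As a share of summed FPKM, muscle gastrocnemian was 6th with 34.3 ppm, behind the prostate (68.1 ppm), bladder (67.6 ppm), retina (47.0 ppm), oesophagus (39.0 ppm) and skin, and muscle abdominal was 13th with 21.0 ppm. By the deposited values, none of the 10 highest THRB means was a brain region: 8 were peripheral tissues, and the retina and the pituitary were the others. Pituitary libraries ran from 2.44 to 25.1 FPKM with a median of 14.3 FPKM, and the lowest was the ZT4 library, which lacked pituitary hormone markers. Liver THRB had a median of 14.7 FPKM and a range of 1.92 to 25.1 FPKM.

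Within the brain, THRB was highest in the prefontal cortex, 8.12 ± 1.82 FPKM, and the mammilliary body, 6.39 ± 2.43 FPKM (SD, n = 12 each). It averaged under 1 FPKM in only 3 of 64 tissues: the pons at 0.74 ± 0.42 FPKM, axillary lymphonodes at 0.78 ± 0.81 FPKM and the cerebellum at 0.92 ± 0.47 FPKM. The suprachiasmatic nuclei, the hypothalamic clock, had a median of 1.61 FPKM and 1 library at 11.1 FPKM. That library, of ZT14, also held pituitary markers, whose median was 12.4 FPKM there and 0.28 FPKM in the tissue. The part of this content in the high value was not tested. As for THRA, all 63 neighbouring pairs of tissues overlapped.

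THRA exceeded THRB in most tissues. Within each library THRA minus THRB, on the log2(FPKM + 0.5) scale, was tested per tissue with an exact two-sided sign-flip permutation test over the animals and Benjamini-Hochberg adjustment over 64 tissues. With all libraries, THRA was higher in 54 tissues, THRB in 4, and 6 did not pass. The test measures spread between animals, not an error in the lengths behind FPKM, which would move all tissues in the same direction. Small differences between the receptors are therefore less sure than their p-values. All 22 brain regions were on the THRA side, with differences of 3.40 to 6.07. In the cerebellum the difference was 6.07 ± 0.55 (SD, n = 12), a 67.1-fold excess, and THRA was higher in 12 of 12 libraries (adjusted exact p = 0.000665, from the smallest p that 12 libraries allow). The visual cortex had the least excess among brain regions, 3.40 ± 0.53, with 50.1 FPKM of THRA and 4.03 FPKM of THRB. Peripheral tissues had a median difference of 1.11.

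The 4 tissues with more THRB were the oesophagus, the bladder, the antrum (the lower stomach) and the retina. In the oesophagus THRA averaged 6.26 FPKM and THRB 25.3 FPKM, a difference of -1.97 ± 0.52 that had the same sign in 12 of 12 libraries (adjusted exact p = 0.000665). Bladder libraries gave -0.72 ± 0.46 (adjusted exact p = 0.00114) and retina libraries -0.54 ± 0.46 (adjusted exact p = 0.00329), each with THRB higher in 11 of 12. The antrum difference was -0.39 ± 0.51, with THRB higher in 9 of 12 (adjusted exact p = 0.0296). The liver did not pass with all 12 libraries (-1.27 ± 2.97, adjusted exact p = 0.171). Without 3 libraries that held other markers it was the tissue farthest on the THRB side, -2.53 ± 0.38 with THRB higher in 9 of 9 (adjusted exact p = 0.00463). The kidney cortex did not pass with all 12 libraries (0.45 ± 0.80, adjusted exact p = 0.087). Without 1 library that held other markers it passed on the THRA side, 0.58 ± 0.71 with THRA higher in 9 of 11 (adjusted exact p = 0.0269).

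**Figure D2:**
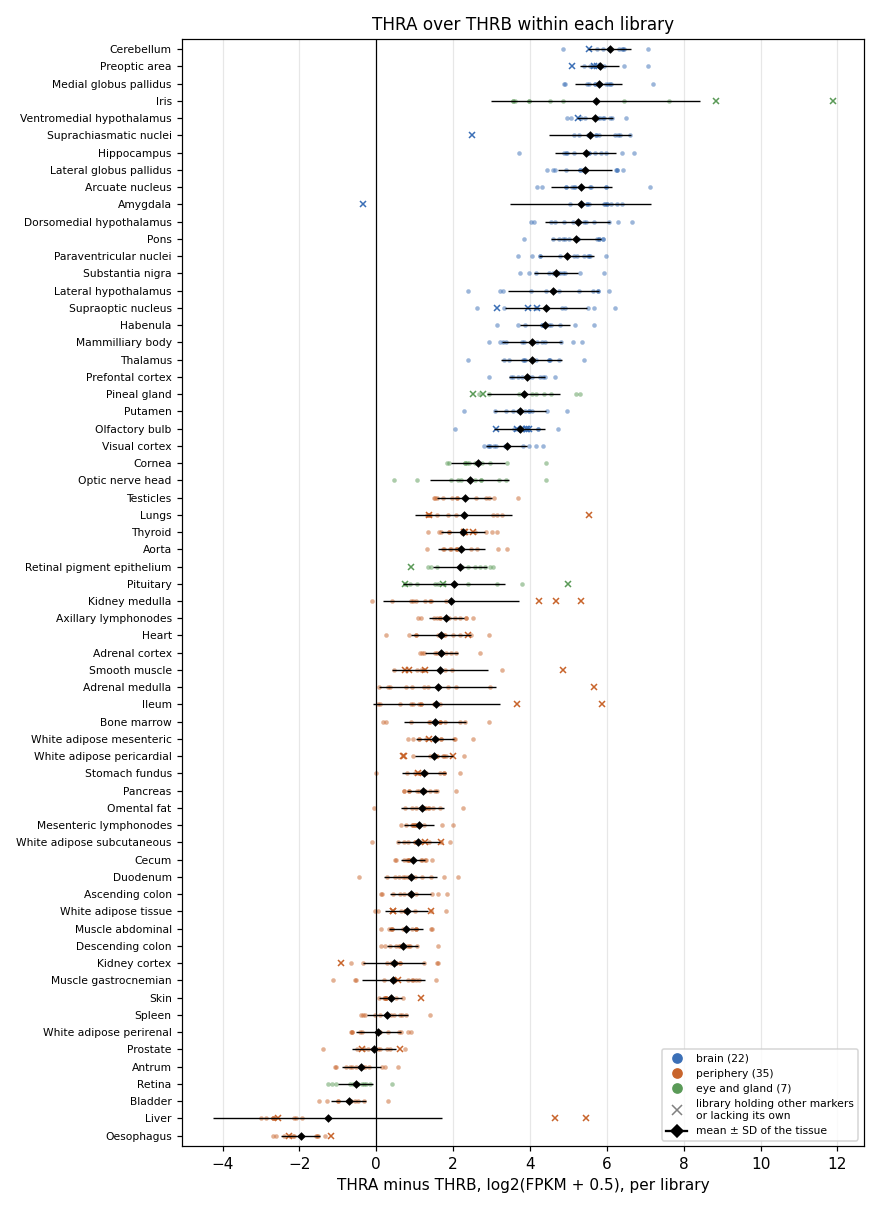
THRA minus THRB within each library, on the log2(FPKM + 0.5) scale, for 64 tissues ordered by their mean; points are libraries, crosses are libraries that held other markers or lacked their own, and diamonds with bars are means ± SD. Brain regions occupy the upper part, from 3.40 to 6.07, and the oesophagus lies lowest at -1.97; the 2 crosses far to the right in the liver are its ZT0 and ZT6 libraries.

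In several peripheral tissues the highest THRA values stood in libraries with neuron markers (SNAP25, SYT1, RBFOX3, STMN2 and SYN1, given as their median). In the liver, THRA was 106 FPKM in both libraries with such markers (ZT0 and ZT6, at 43.9 and 48.3 FPKM), against 0.70 to 4.31 FPKM in the other 10, where the markers were at 0.10 FPKM or less. The ileum had 99.5 and 115 FPKM in the 2 libraries with neuron markers and 0.41 to 9.45 FPKM in the other 10. Kidney medulla libraries with them, 3 in number, had 79.8 to 82.9 FPKM, against 3.78 to 22.8 FPKM in the other 9. In none of these 3 tissues did the groups overlap. Single libraries of the lungs (91.0 FPKM), the adrenal medulla (72.7 FPKM) and smooth muscle (60.2 FPKM), all of ZT0, also had high THRA together with neuron markers. The part of brain or nerve RNA in these THRA values was not tested. The same liver libraries were low in THRB, with 1.92 and 3.71 FPKM against 8.30 to 25.1 FPKM in the other 10. Without the libraries that held other markers, liver THRA averaged 2.29 FPKM, the lowest of the 64 tissues.

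THRSP had a different distribution from both receptors and was concentrated in fat. White adipose mesenteric averaged 1506 FPKM (68.6 to 3139 FPKM, median 1222 FPKM), white adipose subcutaneous 1502 FPKM (571 to 4174 FPKM, median 908 FPKM) and white adipose tissue 1201 FPKM (319 to 5070 FPKM, median 810 FPKM). White adipose perirenal had 630 ± 382 FPKM, omental fat 513 ± 653 FPKM and the skin 256 ± 252 FPKM (SD, n = 12 each). The liver followed with a median of 74.2 FPKM and a range of 1.48 to 278 FPKM, the thyroid with 27.5 FPKM (3.95 to 164 FPKM), muscle abdominal with 37.2 FPKM and muscle gastrocnemian with 23.1 FPKM. THRSP had a mean of 1 FPKM or more in 35 tissues: 24 of 35 peripheral, 9 of 22 brain and 2 of 7 eye or gland tissues. It had no read in 278 libraries.

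The level in 2 fat labels varied between animals with their content of fat cell markers (ADIPOQ, PLIN1, CIDEC, LEP and PLIN4, given as their median). In white adipose pericardial, the 4 libraries of ZT2, ZT10, ZT16 and ZT22 had adipocyte markers at 420 to 808 FPKM and THRSP at 1177 to 3914 FPKM. The other 8 had adipocyte markers at 1.83 to 57.5 FPKM and THRSP at 2.07 to 122 FPKM, without overlap. Other markers moved with this split: keratinocyte markers were at 0.28 to 10.5 FPKM in the 4 and 15.9 to 60.4 FPKM in the 8, and brown adipocyte markers at 6.71 to 643 FPKM in the 4 and 0.45 to 12.9 FPKM in the 8. Their part in the THRSP values was not tested. The libraries of ZT2, ZT16 and ZT22 counted as holding other markers, by their brown adipocyte markers, and none of the 8 did. Fits without such libraries therefore leave out those of ZT2, ZT16 and ZT22 and keep the 8. In omental fat, the 6 libraries of ZT0 to ZT10 had adipocyte markers at 206 to 784 FPKM, and those of ZT12 to ZT22 at 18.2 to 93.5 FPKM.

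**Figure D3:**
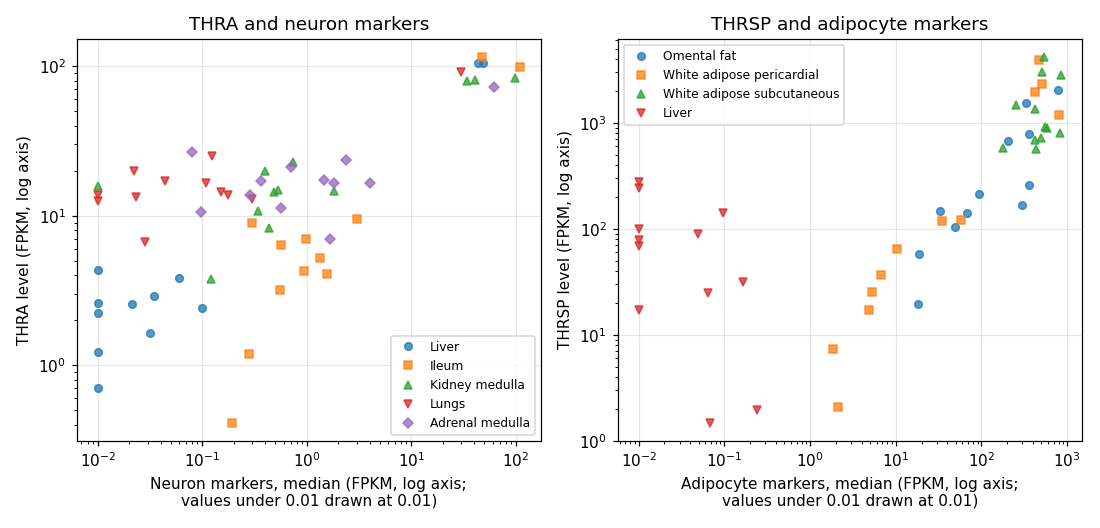
Left, THRA against the median of 5 neuron markers in 5 peripheral tissues; right, THRSP against the median of 5 adipocyte markers in 3 fat labels and the liver; all axes are FPKM on log scales and each point is 1 library. Libraries at 30.1 FPKM of neuron markers or more have THRA of 72.7 FPKM or more, and in white adipose pericardial THRSP spans 2.07 to 3914 FPKM along with its adipocyte markers, while the liver has THRSP at adipocyte markers near 0.

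In the brain, 2 regions had THRSP reads in all 12 libraries, the cerebellum and the ventromedial hypothalamus. Cerebellar libraries had 3.71 to 7.15 FPKM, mean 5.25 ± 1.31 FPKM (SD, n = 12), on 238 reads in all. The prefontal cortex, thalamus and visual cortex had no THRSP read in any of their 12 libraries. Set against the mean that 3 reads over all libraries of a tissue would give, the cerebellum was at least 47.3-fold higher than the prefontal cortex, at least 29.8-fold higher than the thalamus and at least 57.7-fold higher than the visual cortex; this limit covers counting error only. The ventromedial hypothalamus had 0.92 to 7.78 FPKM. Only 8 of 264 brain libraries reached 10 FPKM. Of these, 6 also had hepatocyte markers (ALB, APOA2, APOH, SERPINC1 and FGB) at 10 FPKM or more, among them 4 of the supraoptic nucleus at 15.2 to 39.7 FPKM, and both others were olfactory bulb libraries with skeletal muscle markers at 71.9 and 190 FPKM. Over all 264 brain libraries, 22 had hepatocyte markers at 10 FPKM or more. The amygdala value of 42.1 FPKM, among the 6 above, is a single read in the library of 32790 reads. Its hepatocyte markers, at 84.1 FPKM, stood in the same shallow library.

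**Figure D4:**
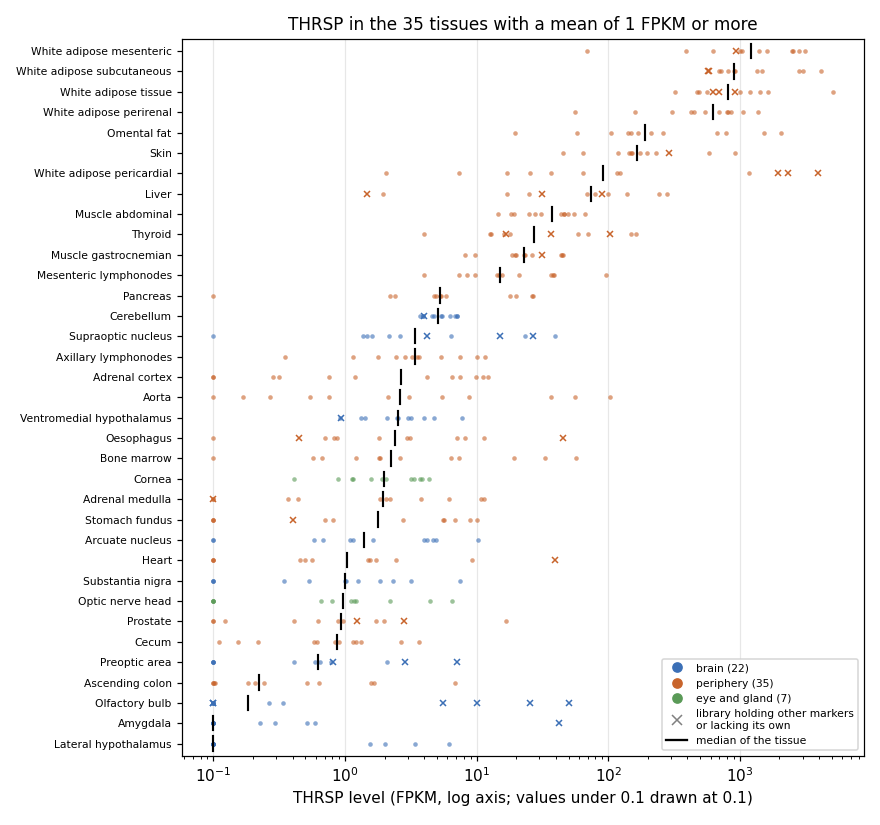
THRSP in FPKM on a log axis in the 35 tissues with a mean of 1 FPKM or more, ordered by median; points are libraries, crosses are libraries that held other markers or lacked their own, and black bars are medians. Fat labels lie at the top, with medians up to 1222 FPKM, white adipose pericardial and omental fat spread widely, and cerebellar libraries lie together between 3.71 and 7.15 FPKM.

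Chosen tissue pairs were tested with limma on log2(FPKM + 0.5), paired by labelled animal, with Benjamini-Hochberg adjustment over all genes tested. Between brain and periphery, THRA was higher and THRB and THRSP were lower in the brain. The mean of brain regions per animal ran from 80.0 to 119 FPKM for THRA (median 94.6 FPKM), against 12.7 to 30.0 FPKM in the periphery (median 17.4 FPKM), with no overlap. On the log2 scale the difference was 2.64 ± 0.07 (SE), or 6.25-fold, and was positive in 12 of 12 animals (limma adjusted p = 3.11e-16). THRB per animal ran from 2.34 to 4.27 FPKM in the brain and from 7.89 to 10.6 FPKM in the periphery, a difference of -1.25 ± 0.07 with the same sign in 12 of 12 animals (limma adjusted p = 6.35e-12). THRSP differed by -2.79 ± 0.11 (limma adjusted p = 3.07e-14). Of the 16305 genes tested 91.8% passed in one direction or the other, so passing is the rule here, and the median gene was at -0.13. When all libraries were brought to an equal sum of FPKM, the median gene moved by -0.52, THRA was at 1.98 and THRB at -1.85, each past the threshold. Without libraries that held other markers THRA was at 2.78, THRB at -1.26 and THRSP at -2.82.

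Between the hypothalamus (9 labels) and the other 13 brain regions, both receptors differed little in the deposited values, and the differences depended on the scaling. THRA averaged 101 FPKM in the hypothalamus and 94.6 FPKM in other brain regions, a log2 difference of 0.19 ± 0.07 (limma adjusted p = 0.0283; positive in 9 of 12 animals). THRB averaged 2.61 FPKM in the hypothalamus and 3.28 FPKM elsewhere, a difference of -0.18 ± 0.07 (limma adjusted p = 0.0371; negative in 10 of 12 animals). In this comparison 75.8% of 14342 genes passed. Neither receptor passed when both sides were fitted without pairing (limma adjusted p = 0.105 for THRA and 0.119 for THRB). With an equal sum of FPKM, which moved the median gene by 0.63, THRA was at 0.92 (limma adjusted p = 1.08e-06) and the sign for THRB turned, to 0.42 (limma adjusted p = 0.00384). THRSP was higher in the hypothalamus by 0.57 ± 0.12 (limma adjusted p = 0.00039), and by 0.59 without libraries that held other markers (limma adjusted p = 0.000184). That fit still holds the supraoptic libraries of ZT18 and ZT20, which had hepatocyte markers and high THRSP as given above. The part of such content in the difference was not tested.

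The pituitary, which makes thyrotropin under feedback by thyroid hormone, had more THRB than the hypothalamus. THRB averaged 14.3 FPKM in the pituitary and 2.61 FPKM in the hypothalamus, a log2 difference of 2.31 ± 0.24 or 4.95-fold that was positive in 12 of 12 animals (limma adjusted p = 1.98e-06). THRA averaged 55.5 FPKM in the pituitary and 101 FPKM in the hypothalamus (-0.74 ± 0.16, limma adjusted p = 0.0011), and 63.9% of 14529 genes passed. Pituitary libraries of ZT4 and ZT22 lacked hormone markers, and without all libraries that held other markers or lacked their own the THRB difference was 2.42. With an equal sum of FPKM the THRA difference was -0.11 and did not pass (limma adjusted p = 0.654).

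The retina and the retinal pigment epithelium were opposite in the receptors. THRA ran from 6.74 to 27.8 FPKM in the retina (median 13.6 FPKM), against 27.0 to 47.3 FPKM in the pigment epithelium (median 34.5 FPKM), a difference of -1.34 ± 0.18 with the same sign in 12 of 12 animals (limma adjusted p = 3.1e-06). THRB ran from 11.2 to 27.9 FPKM in the retina (median 20.8 FPKM), against 3.57 to 20.5 FPKM in the pigment epithelium (median 6.43 FPKM), a difference of 1.38 ± 0.21 that was positive in 11 of 12 animals (limma adjusted p = 1.63e-05). The ranges overlapped for both genes, and 87.9% of 14279 genes passed. The highest THRB value of the pigment epithelium, at ZT18, came from a library with neuron markers, and without libraries that held other markers the difference was 1.48.

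Between cerebellum and prefontal cortex, THRB and THRSP differed far more than THRA. THRB ran from 0.14 to 1.79 FPKM in the cerebellum, against 5.10 to 11.0 FPKM in the prefontal cortex, without overlap (-2.65 ± 0.14, limma adjusted p = 5.53e-10). THRA averaged 92.4 FPKM in the cerebellum and 135 FPKM in the prefontal cortex (-0.50 ± 0.20, limma adjusted p = 0.0444), and 59.8% of 13587 genes passed. The THRA call held without the animal of ZT0, ZT2 or ZT22 and was lost in the other 9 fits that left out 1 animal, and with an equal sum of FPKM the difference was 0.16 and did not pass.

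Striated muscles separated in both receptors. THRA averaged 37.1 FPKM in the skeletal muscles and 17.8 FPKM in the heart (1.19 ± 0.21, limma adjusted p = 9.31e-05). THRB averaged 25.2 FPKM in the skeletal muscles and 4.47 FPKM in the heart (2.27 ± 0.15 or 4.82-fold, limma adjusted p = 2.39e-09). Both were higher in skeletal muscle in 12 of 12 animals, and heart THRB spanned 2.79 to 5.18 FPKM, below every library of either skeletal muscle. THRSP averaged 31.6 FPKM in the skeletal muscles and 4.78 FPKM in the heart (3.96 ± 0.45, limma adjusted p = 1.33e-06), and 77.2% of 12008 genes passed. The heart library of ZT4, at 39.5 FPKM of THRSP, held adipocyte markers; without the libraries that held other markers the THRSP difference was 4.32.

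In the deposited values, THRB was higher in the liver than in the kidney cortex, and lower in the thyroid and in white fat than in the liver. THRB averaged 13.9 FPKM in the liver and 5.30 FPKM in the kidney cortex (1.17 ± 0.25, limma adjusted p = 0.0012; 47.1% of 13021 genes passed), and 2.17 FPKM in the thyroid against the same 13.9 FPKM in the liver (-2.22 ± 0.28, limma adjusted p = 7.91e-06; 59.5% of 13491 passed). White fat (5 labels) averaged 7.74 FPKM of THRB against 13.9 FPKM in the liver (-0.80 ± 0.27, limma adjusted p = 0.0165; 66.9% of 14268 passed). With an equal sum of FPKM, which moved the median gene by -0.60, 1.60 and 0.78 in these comparisons, the THRB differences were 0.48 for liver over kidney cortex (limma adjusted p = 0.107), -0.64 for thyroid over liver (limma adjusted p = 0.0172) and 0.06 for white fat over liver (limma adjusted p = 0.803). Without libraries that held other markers they were 1.51, -2.55 and -1.09 in the same order, each past the threshold. Thyroid libraries matched the animal of the preceding time, so the pairing of thyroid and liver may not be by animal; the unpaired fit gave limma adjusted p = 5.13e-07 for THRB.

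Comparisons of liver THRA gave other values without the libraries that held other markers, which in the liver are those of ZT0 and ZT6 (neuron) and ZT12 (kidney tubule). With all libraries THRA averaged 19.6 FPKM in the liver and 7.57 FPKM in the kidney cortex, and the log2 difference of -0.55 ± 0.50 did not pass (limma adjusted p = 0.367). Without the libraries that held other markers the difference was -1.36 (limma adjusted p = 0.000538). Thyroid over liver was 1.30 ± 0.59 with all libraries (limma adjusted p = 0.0719) and 2.29 without those libraries (limma adjusted p = 6.42e-05). Scaled to an equal sum of FPKM, with all libraries, it was 2.98 and also passed (limma adjusted p = 0.000913). White fat over liver was 1.46 ± 0.53 (limma adjusted p = 0.0233) and 2.29 without them (limma adjusted p = 4.71e-07). Within the kidney, THRA averaged 7.57 FPKM in the cortex and 30.7 FPKM in the medulla, a difference of -1.49 ± 0.33 (limma adjusted p = 0.0017; 54.2% of 13287 genes passed), which was -0.85 without the libraries that held other markers (limma adjusted p = 0.00578). THRB averaged 5.30 FPKM in the cortex and 5.38 FPKM in the medulla, a difference of 0.004 ± 0.14 that did not pass. Scaled to an equal sum of FPKM it was -0.54 and passed (limma adjusted p = 0.0108).

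In the same organs THRSP was highest in fat. White fat averaged 1131 FPKM and the liver 89.7 FPKM (3.77 ± 0.52 or 13.6-fold, positive in 12 of 12 animals, limma adjusted p = 1.86e-05). Without libraries that held other markers this difference was 3.28 (limma adjusted p = 0.000106). That fit leaves out 3 of the 4 pericardial libraries rich in adipocyte markers. The liver had 2837 THRSP reads in its 12 libraries, and the kidney cortex had 1 read in its 12. The thyroid, at 55.2 FPKM against 89.7 FPKM in the liver, did not differ by this test (-0.36 ± 0.66, limma adjusted p = 0.656). Scaled to an equal sum of FPKM this difference was 1.41 and did not pass (limma adjusted p = 0.0524). The 3 thyroid libraries with adipocyte markers at 10 FPKM or more, of ZT10, ZT16 and ZT22, had THRSP at 70.5 to 164 FPKM. The other 9, with markers at 1.60 to 8.11 FPKM, had 3.95 to 103 FPKM, so the values overlapped. The part of fat tissue in these thyroid values was not tested.

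Other genes of the pathway were counted by list in the comparison of brain and periphery, where 41.5% of all genes tested were higher in the brain, 50.3% were lower, and the median gene was at -0.13. Of 10 genes of thyroid hormone transport, 6 were higher, 3 lower and 1 did not pass, with a list median of 1.09. SLCO1A2, an organic anion transporter that carries thyroxine, averaged 20.3 FPKM in the brain and 3.95 FPKM in the periphery (4.00 ± 0.07, limma adjusted p = 1.43e-18). CRYM, a cytosolic protein that binds T3, averaged 103 FPKM in the brain and 7.15 FPKM in the periphery (3.89 ± 0.08, limma adjusted p = 1.34e-17). TTR, the thyroxine carrier transthyretin, averaged 56.5 FPKM in the brain and 48.3 FPKM in the periphery, and differed by 3.31 ± 0.19 in the mean of log2 values (limma adjusted p = 7.95e-12).

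Of 9 genes of selenoprotein synthesis and deiodinase turnover that had a row, 3 were higher in the brain, 4 lower and 2 did not pass (median -0.06). USP20, a deubiquitinase known to act on type 2 deiodinase, was higher by 1.38 ± 0.09 (limma adjusted p = 4.29e-11), and SEPHS2, which makes the selenium donor for selenocysteine, averaged 17.2 FPKM in the brain and 50.8 FPKM in the periphery (-1.22 ± 0.05, limma adjusted p = 4.92e-14). With an equal sum of FPKM 1 was higher and 8 lower. Of 12 receptor partners and cofactors, 3 were higher, 8 lower and 1 did not pass (median -0.41). RXRG, a retinoid X receptor, averaged 15.6 FPKM in the brain and 6.48 FPKM in the periphery (2.22 ± 0.06, limma adjusted p = 4.99e-16). NCOA3, a steroid receptor coactivator, averaged 2.02 FPKM in the brain and 13.4 FPKM in the periphery (-1.98 ± 0.07, limma adjusted p = 4.88e-15). With an equal sum of FPKM 1 was higher and 9 lower.

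Of 13 other thyroid hormone target genes with a row, 3 were higher in the brain and 10 lower (median -0.58), with the same counts at an equal sum of FPKM. NRGN, the neuronal protein neurogranin, averaged 81.6 FPKM in the brain and 1.01 FPKM in the periphery (3.51 ± 0.13, limma adjusted p = 2.88e-14). TXNIP, an inhibitor of thioredoxin and of glucose uptake, averaged 49.5 FPKM in the brain and 662 FPKM in the periphery (-3.74 ± 0.10, limma adjusted p = 3.37e-16). Of 4 tested genes of the central axis, 3 were higher and 1 lower (median 1.11). TRH, the thyrotropin-releasing hormone, averaged 33.6 FPKM in the brain and 1.67 FPKM in the periphery (2.67 ± 0.09, limma adjusted p = 7.08e-15). CGA and TSHB, both subunits of thyrotropin, are also pituitary markers, which some hypothalamic libraries held. In the pituitary itself TSHB averaged 2514 FPKM, against 8.60 FPKM in the hypothalamus (limma adjusted p = 0.00234).

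The genes with the tissue profile most like each member were found over the means of 64 tissues among 16217 genes, by Pearson r of log2(FPKM + 0.5). For THRA these were SMARCD3 (r = 0.91), a subunit of a chromatin remodelling complex, SHISA4 (0.90), the acid-sensing ion channel ASIC1 (0.90), the G protein subunit GNAZ (0.90) and the glycosyltransferase B4GAT1 (0.90). For THRB the values were lower: FILIP1 (0.73), which binds filamin, the adhesion receptor ADGRL2 (0.71), TOB1 (0.70), PCYOX1 (0.70) and MSRB3 (0.69). For THRSP these were the fat cell hormones ADIPOQ (0.92) and LEP (0.91), ANGPTL8 (0.90), which inhibits lipoprotein lipase, the lipid droplet protein CIDEC (0.90) and TUSC5 (0.89). The adipocyte markers used above include 3 of these 5. The 64 tissues share animals and, in part, libraries with mixed content, so these values are descriptions.

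Time of day was fitted with a 24 h cosine on per-animal means of tissue-centred log2 levels. Over 63 tissues, THRA had an amplitude of 0.25 ± 0.06 (SE), a fitted peak-to-trough ratio of 1.42, and a peak at ZT5.9 (limma adjusted p = 0.00608). The animals of ZT0 to ZT6 were 0.21 to 0.28 above the tissue means and those of ZT16 to ZT22 were 0.16 to 0.40 below. In the same fit 63.4% of 12055 genes passed, and their shared pattern is described next. THRB had an amplitude of 0.12 ± 0.04 and did not pass (limma adjusted p = 0.0814), although it passed without the animal of ZT2 (limma adjusted p = 0.0373) and without that of ZT6 (limma adjusted p = 0.0137). THRSP, tested body-wide and in the periphery, did not pass (limma adjusted p = 0.679 and 0.742).

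Many genes moved together along a single axis, taken as the leading principal component after each tissue's mean was removed, which held 32.0% of the remaining variance. Its mean per animal ran from 0.94 at ZT6 to -0.98 at ZT22, and it was above 0 from ZT0 to ZT12 and below 0 from ZT14 to ZT22. With this axis in the fit, the body-wide amplitude of THRA was 0.01 (limma adjusted p = 0.999), and 0.166% of all genes passed. With a straight line over the day in the fit it was 0.07 (limma adjusted p = 0.394). The daily THRA profile and this axis cannot be told apart in these 12 animals.

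THRA was also fitted in brain and periphery apart. In the brain the amplitude was 0.27 ± 0.06 with a peak at ZT6.4 (limma adjusted p = 0.0126; 31.4% of 12660 genes passed), and in the periphery it was 0.25 ± 0.08 with a peak at ZT5.8 (limma adjusted p = 0.0532; 61.1% of 11837 passed). The peripheral libraries with neuron markers and high THRA were all of ZT0 to ZT8. Without libraries that held other markers the peripheral amplitude was 0.21 with a peak at ZT7.7, and it passed (limma adjusted p = 0.0236). The brain minus peripheral value per animal was tested itself and gave an amplitude of 0.05 ± 0.10 for THRA (limma adjusted p = 0.93) and 0.14 ± 0.09 for THRB (limma adjusted p = 0.561), where 5.36% of genes passed. With the axis in the fit the brain THRA amplitude was 0.15 (limma adjusted p = 0.7). With a straight line over the day in the fit it was 0.25 and did not pass (limma adjusted p = 0.261). THRSP was under the level filter in the brain and was not tested there.

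NR1D1, the clock repressor REV-ERBα, lies beside THRA in the baboon RefSeq annotation (Panubis1.0), and in human and mouse it overlaps the THRA splice form that binds no hormone, on the opposite strand. The kit marks strand, but the strand setting of the counting is not given in the sources used here, so reads of both genes may not be fully separated. NR1D1 had a body-wide amplitude of 0.90 ± 0.09 and a peak at ZT22.8 (limma adjusted p = 0.000228), against ZT5.9 for THRA. Its animals of ZT8 and ZT10 were lowest, at -0.997 and -0.994, where THRA was at -0.01 and 0.16. The 24 h fit of brain minus peripheral values passed for NR1D1 (limma adjusted p = 0.00426) and did not pass for THRA (limma adjusted p = 0.93).

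**Figure D5:**
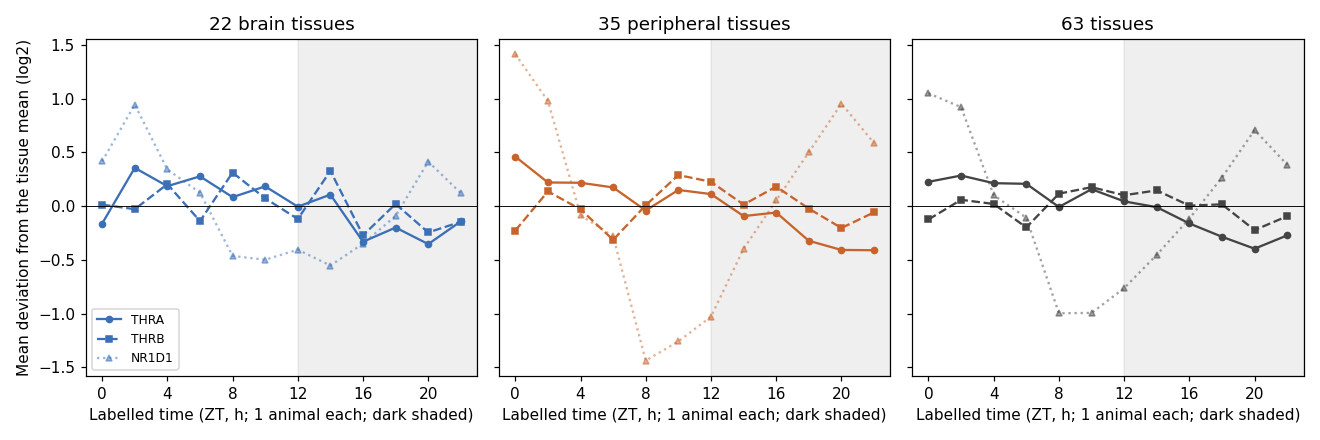
Mean deviation from the tissue mean, on the log2 scale, of THRA, THRB and NR1D1 at each labelled time (1 animal each) over 22 brain tissues, 35 peripheral tissues and 63 tissues; dark hours are shaded. THRA is above 0 in the early light hours and below 0 from ZT16, by at most 0.40 over 63 tissues, while NR1D1 spans -0.997 to 1.05 with its low at ZT8 and ZT10.

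Within single tissues few member profiles passed. Over 160 pairs of member and tissue, 9 passed (5.62%), against 6.56% of 793508 pairs of all genes and tissues. They were 4 of 64 tissues for THRA, 4 of 61 for THRB and 1 of 35 for THRSP, whereas NR1D1 passed in 17 of 64. With the axis in the fit, 0 THRA, 2 THRB and 0 THRSP tissues passed, and so did 0.207% of all pairs. Among the calls lost that way, the amplitude of THRSP in omental fat was 2.16 with the axis and 2.07 without, and that of THRB in muscle gastrocnemian was 0.78 with it and 0.67 without. The THRA amplitude in the visual cortex was 0.037 with the axis and 0.88 without. An unadjusted p under 0.05 was reached in 20 tissues for THRA, 7 for THRB and 3 for THRSP.

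THRA passed in the thyroid, where it was lowest at ZT0 (5.11 FPKM) and highest at ZT4 (20.6 FPKM), with a median of 14.5 FPKM, an amplitude of 0.76 ± 0.14 and a peak at ZT8.6 (limma adjusted p = 0.00446; 44.2% of the tissue's genes passed). Since the thyroid libraries matched the animals of the preceding time, its labelled times may be 2 h from those of the animals sampled. The ZT4 library held skeletal muscle markers at 197 FPKM, as did those of ZT2 and ZT12 at lower levels. Without these 3 libraries the highest value was 18.4 FPKM, the amplitude 0.82 and the peak at ZT10.0 (limma adjusted p = 0.00337). The other 3 tissues were brain regions, with peaks at ZT8.0 to ZT8.9. In the medial globus pallidus THRA ran from 63.7 FPKM at ZT0 to 165 FPKM at ZT6 (0.47 ± 0.09, peak ZT8.9, limma adjusted p = 0.0139). The mammilliary body had 67.4 FPKM at ZT16 and 165 FPKM at ZT8 (0.50 ± 0.11, peak ZT8.7, limma adjusted p = 0.0382). In the visual cortex the range was 13.7 FPKM at ZT22 to 93.7 FPKM at ZT2 (0.88 ± 0.21, peak ZT8.0, limma adjusted p = 0.0345). In these 3 regions 17.4%, 9.34% and 20.4% of genes passed. The THRA call held in 21 of 22 alternatives in the thyroid, 21 of 23 in the medial globus pallidus, 11 of 23 in the mammilliary body and 13 of 23 in the visual cortex. Scaled to an equal sum of FPKM, it was lost in the medial globus pallidus (limma adjusted p = 0.456) and the mammilliary body (limma adjusted p = 0.151). The 3 brain regions had no library that held other markers, matched another animal or carried the suffix approx. The alternatives that leave such libraries out repeat the main fit there.

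THRB passed in the bladder, the antrum, the ileum and muscle gastrocnemian, with peaks spread over the day. In the bladder it ran from 14.8 FPKM at ZT0 to 36.0 FPKM at ZT14 (0.59 ± 0.10, peak ZT12.3, limma adjusted p = 0.0157), where 21.9% of genes passed. This call held in all 23 alternatives run for it. The bladder had no library that held other markers, matched another animal or carried the suffix approx. The alternatives that leave such libraries out therefore repeat its main fit. In the antrum it was lowest at ZT20 (5.54 FPKM) and highest at ZT6 (34.7 FPKM), with an amplitude of 0.89 ± 0.13 (peak ZT7.2, limma adjusted p = 0.0148), where 5.75% of genes passed, and the call held in 18 of 23 alternatives. The antrum call was lost without the ZT4 library (limma adjusted p = 0.0618), whose column carries the suffix approx and which matched another animal. It was also lost with a linear trend in the fit (limma adjusted p = 0.286). Muscle gastrocnemian had 13.7 FPKM at ZT10 and 55.8 FPKM at ZT18 (0.67 ± 0.15, peak ZT19.9, limma adjusted p = 0.0327; 20.5% passed), a call that held in 14 of 23 alternatives. Its skeletal muscle markers were lowest at ZT22, 1819 FPKM, and highest at ZT12, 43445 FPKM, and their part in the THRB profile was not tested. The ileum call (limma adjusted p = 0.0471, with 27.5% of genes passing) has its highest value, 7.34 FPKM, in the ZT4 library that held neuron markers. It passed in 7 of 22 alternatives. It did not pass without libraries that held other markers (limma adjusted p = 0.0546) or with an equal sum of FPKM (limma adjusted p = 0.269).

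THRSP passed in omental fat alone among the 35 tissues tested. It was highest at ZT4 (2065 FPKM) and lowest at ZT18 (19.5 FPKM), with a median of 190 FPKM, an amplitude of 2.07 ± 0.47 and a peak at ZT3.8 (limma adjusted p = 0.0207; 37.7% of genes passed). The 6 libraries of ZT0 to ZT10 had 168 to 2065 FPKM and those of ZT12 to ZT22 had 19.5 to 212 FPKM, with overlap. Markers of other content move along with it: those of fat cells stood at 206 to 784 FPKM in the first 6 and at 18.2 to 93.5 FPKM in the last 6, and those of smooth muscle at 4.70 to 2627 FPKM and at 1226 to 3111 FPKM. None of the 5 white adipose labels had a THRSP profile that passed.

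Pathway genes were counted by list in the body-wide fit, where 63.4% of all genes passed. Those that passed were 3 of 6 tested genes of hormone transport, 8 of 9 of selenoprotein synthesis and deiodinase turnover, 7 of 12 receptor partners and cofactors, and 7 of 9 target genes, while no gene of the central axis met the level filter. KLF9, a hormone-responsive Krüppel-like factor also induced by glucocorticoids, had an amplitude of 0.70 ± 0.09 with a peak at ZT4.4 (limma adjusted p = 0.000312), and HR, the corepressor hairless, 0.42 ± 0.05 with a peak at ZT5.6 (limma adjusted p = 0.000308). SEPSECS, which makes selenocysteine on its tRNA, peaked at another time, ZT18.7 (0.26 ± 0.07, limma adjusted p = 0.0234). RXRA, the partner of both receptors in many tissues, had 0.65 ± 0.09 with a peak at ZT5.7 (limma adjusted p = 0.000377). With the axis in the fit, none of these genes on any of the 4 lists passed.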

How the data were processed

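The deposited table gives FPKM values per gene and library, made by the authors from polyA-selected stranded libraries. Tools listed in the submitters' processing notes are STAR, featureCounts and DESeq2, without versions or roles, and the labels and the table's headers give no genome build. The values came out as whole reads times 1 factor per gene and library (26546 of 26546 rows above 0, tolerance 0.01), which was used for depth and for the limit of 3 reads only. Of the table's columns, 8 carry the suffix approx, which the labels do not explain.

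Groups were taken from the labels. Tissue comparisons used limma 3.58.1 in R 4.3.3 on log2(FPKM + 0.5), on per-animal differences of the mean over tissues, for genes that averaged at least 1 FPKM on either side, with Benjamini-Hochberg adjustment over all genes tested and a threshold of 0.05. The pairing comes from the labels, which give 1 animal per time. Time of day was fitted with 24 h cosine and sine terms in limma. The receptors were compared within libraries by an exact sign-flip permutation test. A fold change on this scale understates changes of low genes. The fits were tested on simulated data without a shared axis and with changes larger than most amplitudes given here. That test does not cover smaller amplitudes or genes that move together.

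A library was said to hold other markers when the median of a marker list was at least 10 FPKM and 20 times its tissue's median, and to lack its own when the list of its own tissue was under its tissue's median by that factor. A library was matched to animals by 200 genes that differ between animals. The genes named are the members, up to 3 called genes per list with the largest fold, the 5 genes most alike to each member in tissue profile, and NR1D1. The target list leaves out THRSP. The members, lists and tests were chosen with earlier results of these data known. Alternatives were another pseudocount, filter or scaling, fits without pairing, with the axis or a linear trend, and without single animals or doubtful libraries; equal-sum scaling and leaving out libraries matching another animal were chosen after seeing the data.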

Additional observations from a re-analysis of the deposited data

How the results depend on the processing

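Of 1142 alternative values over 67 results, 1005 kept their direction and their side of the threshold. These include fits without doubtful libraries where the tissues compared had none, which repeat the main fit. Fitted without the replicate block, that is without pairing by animal, hypothalamus over other brain was 0.19 for THRA and -0.18 for THRB, neither past the threshold, and the unpaired fit changed no other call. Scaling to an equal sum of FPKM gave 0.42 for THRB in that comparison (past the threshold) and -0.11 for THRA in pituitary over hypothalamus. It gave 0.16 for THRA in cerebellum over prefontal cortex and 0.48 for THRB in liver over kidney cortex. In thyroid over liver it gave 2.98 for THRA (past the threshold) and 1.41 for THRSP. For THRB it gave -0.54 in kidney cortex over medulla (past the threshold) and 0.057 in white fat over liver. The causes were not tested. Without libraries that held other markers, THRA was -1.36 in liver over kidney cortex and 2.29 in thyroid over liver, each past the threshold. THRB was then -0.20 in kidney cortex over medulla and did not pass. That last difference was also -0.000782 with a pseudocount of 1 and -0.014 with median-of-ratios scaling within tissues. THRA lost its call in hypothalamus over other brain without columns marked approx and without libraries matching another animal (0.18, limma adjusted p = 0.055 in both), and in cerebellum over prefontal cortex with a pseudocount of 0.1 (-0.50, limma adjusted p = 0.0515).

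With the axis in the fit the THRA amplitude was 0.010 body-wide and 0.15 in the brain, and with a linear trend 0.071 and 0.25, none of them past the threshold. In the periphery THRA passed at 0.25 with a filter of 5 FPKM, at 0.25 without columns marked approx and at 0.21 without libraries that held other markers. Tissues that passed numbered 0 for THRA, 2 for THRB and 0 for THRSP with the axis, 1 for THRB and 0 for THRSP with a trend, and 2 for THRSP without columns marked approx or without libraries matching another animal. Scaled to an equal sum of FPKM, THRA lost its call in the medial globus pallidus and the mammilliary body, and THRB in the ileum. Leaving out 1 animal at a time gave 2 to 9 tissues for THRA, 1 to 4 for THRB and 0 to 2 for THRSP. It gave amplitudes of 0.10 to 0.14 for body-wide THRB, 0.21 to 0.30 for peripheral THRA and 0.11 to 0.20 for peripheral THRB. Tissue differences ran from -0.67 to -0.40 for THRA in cerebellum over prefontal cortex, 0.15 to 0.23 for THRA and -0.22 to -0.13 for THRB in hypothalamus over other brain, -0.046 to 0.062 for THRB in kidney cortex over medulla, 1.11 to 1.80 for THRA in thyroid over liver and 1.30 to 1.89 for THRA in white fat over liver. A comparison of DIO2 with DIO3 was not run. THRSP levels near 0 rest on a few reads per library.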
